A study of Mus musculus with 8 samples.

Results

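The Reg (regenerating islet-derived) family was taken as the 7 mouse genes Reg1, Reg2, Reg3a, Reg3b, Reg3d, Reg3g and Reg4, found by matching the Ensembl identifiers of the count table to these symbols. All 7 had a row among the 53012 rows of the table, and 6 of the 7 were among the 15474 genes with enough counts to be tested. RNA was sequenced in bulk from islets of 4 βIgf1r mice (M148, M151, M152 and M153) and 4 βIgf1rKD mice (M145, M146, M149 and M150), with 1 library for each mouse. Both groups were 17 months old and carried Igf1r flox/flox, in which exon 3 of the IGF-1 receptor gene can be removed by Cre. The βIgf1rKD mice were Ins1-CreERT2+/- and had received 5 daily tamoxifen injections of 0.075 mg/g, and the βIgf1r mice were Ins1-CreERT2-/- and had received the corn oil vehicle. Islets were taken 7 days after the last injection. The comparison asks what a lowered IGF-1 receptor in β-cells does to islet RNA. Cre and tamoxifen were present in the same mice and absent from the same mice, so genotype and drug cannot be told apart. The Cre is written as Ins1-CreERT2 in the genotype and described in the methods as driven by a rat insulin promoter, and it should act in β-cells, whereas the islet preparations also held other cell types. The methods state that both sexes were used, and the labels do not give the sex of each mouse.

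Reg genes encode small secreted proteins with a C-type lectin fold. In the mouse pancreas they are made mainly by acinar cells, the exocrine cells that secrete digestive enzymes, and they are known as genes that rise with injury, inflammation and regeneration. Interleukin-6 family cytokines, interleukin-22 and interferon act on several of them through STAT transcription factors. Reg1 and Reg2 were first described in regenerating islets, Reg3b is the pancreatitis-associated protein, Reg3g is best known as an antibacterial lectin of the gut, Reg3a and Reg3d are close relatives expressed in pancreas, and Reg4 is mostly an intestinal gene.

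Of the 7 genes, 6 lie side by side on chromosome 6 and Reg4 lies on chromosome 3 (GRCm38, GENCODE M21). From left to right the cluster holds Reg3b (78370657 to 78373466), Reg3d (78375874 to 78378865), Reg3a (78380709 to 78383827), Reg2 (78395623 to 78408106), Reg1 (78422711 to 78428667) and Reg3g (78466269 to 78468872). Reg3d and Reg3g are on the minus strand and the others on the plus strand. Reg4 spans 98222156 to 98236748 of chromosome 3. The transcript used for each gene has 6 exons, and its length lies between 698 bases (Reg2) and 1021 bases (Reg4). Because genes this alike can share sequencing reads, the coding sequences were aligned. Reg1 and Reg2 were identical at 82.6% of aligned bases and Reg3b and Reg3g at 76.4%, whereas Reg4 was identical to the others at 57.4% to 63.2%. The longest run of bases shared by Reg1 and Reg2, and by Reg3b and Reg3g, is shown in capitals.
Reg1 (bases 269 to 317 of the coding sequence): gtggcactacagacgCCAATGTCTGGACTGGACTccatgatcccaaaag
Reg2 (bases 293 to 341 of the coding sequence): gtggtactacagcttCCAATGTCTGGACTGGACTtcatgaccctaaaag
Reg3b (bases 11 to 75 of the coding sequence): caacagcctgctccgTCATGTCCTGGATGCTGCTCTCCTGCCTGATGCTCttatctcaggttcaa
Reg3g (bases 11 to 75 of the coding sequence): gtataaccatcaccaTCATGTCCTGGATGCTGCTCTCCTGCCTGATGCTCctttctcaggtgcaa
The run shared by Reg1 and Reg2 was 19 bases long and the run shared by Reg3b and Reg3g was 35. Of all 31-base words in the transcripts, 5 of the 753 of Reg3b (0.664%) and 5 of the 741 of Reg3g (0.675%) were shared by these genes, and the other 5 transcripts shared no word of that length with any other gene. The deposited estimated counts of the family were whole numbers in every mouse except for Reg1 in M146. Apart from those 5 words, no stretch of that length was common to a pair of members.

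The 250 bases before each RefSeq transcription start (GRCm38.p6) are given because the cluster members were high and low in the same mice. They are written in the direction of transcription, and capitals mark matches to 4 motifs searched on both strands.
Reg1 (chr6:78425733-78425982, plus strand): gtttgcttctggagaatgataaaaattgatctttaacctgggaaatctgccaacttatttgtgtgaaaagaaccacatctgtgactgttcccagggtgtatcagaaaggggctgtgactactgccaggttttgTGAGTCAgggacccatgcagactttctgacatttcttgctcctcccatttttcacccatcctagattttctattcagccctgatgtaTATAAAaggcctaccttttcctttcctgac
Reg2 (chr6:78404905-78405154, plus strand): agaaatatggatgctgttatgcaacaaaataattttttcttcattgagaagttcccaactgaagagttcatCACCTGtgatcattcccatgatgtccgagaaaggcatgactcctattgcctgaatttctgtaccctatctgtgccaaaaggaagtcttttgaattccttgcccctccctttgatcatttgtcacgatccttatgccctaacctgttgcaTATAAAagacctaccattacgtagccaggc
Reg3a (chr6:78380459-78380708, plus strand): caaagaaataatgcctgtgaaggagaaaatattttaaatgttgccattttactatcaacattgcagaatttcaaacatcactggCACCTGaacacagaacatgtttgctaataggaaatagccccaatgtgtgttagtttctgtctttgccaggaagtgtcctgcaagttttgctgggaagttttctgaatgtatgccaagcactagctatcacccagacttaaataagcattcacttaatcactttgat
Reg3b (chr6:78370635-78370884, plus strand): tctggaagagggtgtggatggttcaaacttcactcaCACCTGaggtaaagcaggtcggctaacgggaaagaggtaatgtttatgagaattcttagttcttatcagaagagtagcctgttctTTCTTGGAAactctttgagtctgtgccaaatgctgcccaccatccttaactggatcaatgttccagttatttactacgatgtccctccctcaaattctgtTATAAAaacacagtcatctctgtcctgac
Reg3d (chr6:78378866-78379115, minus strand): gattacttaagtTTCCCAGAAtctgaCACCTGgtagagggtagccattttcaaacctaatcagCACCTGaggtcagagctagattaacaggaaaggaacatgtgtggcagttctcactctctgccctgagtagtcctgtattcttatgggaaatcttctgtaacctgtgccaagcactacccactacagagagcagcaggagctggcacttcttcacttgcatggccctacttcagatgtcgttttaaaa
Reg3g (chr6:78468875-78469124, minus strand): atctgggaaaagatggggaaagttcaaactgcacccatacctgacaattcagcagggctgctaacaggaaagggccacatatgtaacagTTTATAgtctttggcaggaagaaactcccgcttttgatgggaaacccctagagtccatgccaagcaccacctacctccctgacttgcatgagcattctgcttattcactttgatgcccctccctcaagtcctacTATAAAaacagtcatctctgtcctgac
Reg4 (chr3:98221906-98222155, plus strand): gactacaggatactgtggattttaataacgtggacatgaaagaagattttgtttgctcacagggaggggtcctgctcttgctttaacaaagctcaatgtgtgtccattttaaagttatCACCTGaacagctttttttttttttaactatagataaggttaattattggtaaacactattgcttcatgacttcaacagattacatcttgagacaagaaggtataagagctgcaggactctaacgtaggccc
The motifs were TTCNNNGAA (bound by STAT factors), TGANTCA (AP-1), TATAAA (the TATA box) and CACCTG, an E-box of the kind bound by the acinar factor PTF1A, which was added after the promoters had been read. None of the matches overlapped another. TATAAA was found in 4 of the 7 promoters (Reg1, Reg2, Reg3b and Reg3g), starting between -30 and -27 in each, and Reg3g held a further match on the opposite strand starting at -161. It was found in 12.4% of 32851 promoters of this length. TTCNNNGAA was found in Reg3b, from -129 to -121, and in Reg3d, from -238 to -230, and in 7.02% of all promoters. TGANTCA was found in Reg1 alone among the 7, from -117 to -111, and in 6.75% of all promoters. CACCTG was found in 5 of the 7 (Reg2, Reg3a, Reg3b, Reg3d and Reg4), with a pair of matches in Reg3d, and in 17.2% of all promoters. A match describes letters in this window and is not a measured binding site. The GENCODE spans of Reg1, Reg2 and Reg3b begin upstream of the RefSeq starts used for these windows.

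Library totals lay between 21634080 and 42391328 counts. Islet genes were high, with Ins2 at 90200 to 139000 CPM (counts per 1000000 of the library, scaled by TMM factors) over the 8 mice. Igf1r itself was at 53.6 ± 7.21 CPM in βIgf1r and 50.7 ± 4.996 CPM in βIgf1rKD (SD, n = 4 each), with a log2 fold change of -0.08 (SE 0.11), and the ranges of the groups overlapped. Removal of a single exon need not lower the count of the whole gene, and whether this applies here was not tested. The paper reports lower Igf1r mRNA by qPCR and lower IGF1R protein by Western blot in βIgf1rKD islets, from mice of other age ranges. The 23 acinar enzyme genes made up 3.04%, 5.10%, 21.4% and 13.4% of all counts in M148, M151, M152 and M153, and 22.4%, 6.21%, 25.2% and 17.3% in M145, M146, M149 and M150. Across all genes tested, 0% passed an adjusted p of 0.05 by edgeR's quasi-likelihood test, 637 genes (4.12%) had an unadjusted p under 0.05, and DESeq2 and limma-voom called 8 genes and 1 gene.

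In βIgf1rKD islets, all 6 tested Reg genes had higher mean levels than in βIgf1r islets, by between 2.23-fold (Reg3d) and 7.66-fold (Reg2), and the same 3 of the 4 βIgf1rKD mice (M145, M149 and M150) exceeded every βIgf1r mouse for each of these genes. The remaining βIgf1rKD mouse, M146, was low for all 6. None of the 6 passed the adjusted threshold, and each had an adjusted p of 0.987 by edgeR.

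Reg1, the most abundant member per kilobase of transcript, was at 162.1, 320.6, 1670 and 1043 CPM in βIgf1r mice M148, M151, M152 and M153. It was at 3528, 349.1, 2830 and 1769 CPM in βIgf1rKD mice M145, M146, M149 and M150. The groups overlapped through M146, which sat beside the lower pair of βIgf1r mice. The means were 799 ± 696 and 2119 ± 1384 CPM (SD, n = 4 each), a 2.65-fold difference (log2 1.41, SE 0.79, unadjusted p = 0.107 by edgeR). An exact permutation test on log2 CPM (two-sided) gave p = 0.171, where the smallest p that 4 against 4 mice allow is 0.0286.

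Reg2, the closest relative of Reg1 in sequence, was at 12.8, 14.5, 82.0 and 20.5 CPM in the βIgf1r mice, in the same order, and at 321.7, 13.6, 355.3 and 303.4 CPM in the βIgf1rKD mice. M145, M149 and M150 lay far above every βIgf1r mouse, and M146 lay between the lowest βIgf1r pair. The means were 32.4 ± 33.2 and 248.5 ± 158.1 CPM (SD, n = 4 each), a 7.66-fold difference (log2 2.94, SE 0.92, unadjusted p = 0.0101 by edgeR), and the exact permutation p was 0.114.

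Reg3b, the pancreatitis-associated protein, had values of 7.75, 9.24, 49.2 and 11.5 CPM in the βIgf1r mice. Its values in the βIgf1rKD mice were 200.4, 6.78, 154.5 and 233.1 CPM. The pattern over mice was that of Reg2, except that M146 was the lowest of all 8. The means were 19.4 ± 19.9 and 148.7 ± 99.96 CPM (SD, n = 4 each), a 7.65-fold difference (log2 2.94, SE 0.94, unadjusted p = 0.0113 by edgeR), and the exact permutation p was 0.143.

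Reg3g, the antibacterial lectin, was at 2.34, 2.11, 10.1 and 3.03 CPM in the βIgf1r mice and at 32.5, 1.39, 26.8 and 48.1 CPM in the βIgf1rKD mice. M150 was the highest mouse for both Reg3b and Reg3g, and M146 again was the lowest of all 8. The means were 4.40 ± 3.83 and 27.2 ± 19.4 CPM (SD, n = 4 each), a 6.19-fold difference (log2 2.63, SE 0.86, unadjusted p = 0.0125 by edgeR), and the exact permutation p was 0.143.

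Reg3a was the lowest of the 6 per kilobase, with values of 0.772, 1.49, 8.44 and 1.04 CPM in the βIgf1r mice and 23.7, 0.607, 11.1 and 40.0 CPM in the βIgf1rKD mice. These rest on 22 to 237 counts in βIgf1r and 17 to 1620 counts in βIgf1rKD. M149 was above the highest βIgf1r mouse, M152, by less than M145 and M150 were, and M146 was below every other mouse. The means were 2.94 ± 3.68 and 18.8 ± 16.9 CPM (SD, n = 4 each), a 6.43-fold difference (log2 2.69, SE 1.05, unadjusted p = 0.0297 by edgeR), and the exact permutation p was 0.2.

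Reg3d, the mouse relative of hamster INGAP (islet neogenesis-associated protein), was at 4.47, 7.89, 36.4 and 27.2 CPM in the βIgf1r mice and at 62.5, 7.68, 61.8 and 37.1 CPM in the βIgf1rKD mice. M150 exceeded the highest βIgf1r mouse by less than 1 CPM, so that the separation of 3 of the 4 βIgf1rKD mice was narrow here. The means were 19.0 ± 15.3 and 42.3 ± 25.9 CPM (SD, n = 4 each), a 2.23-fold difference (log2 1.16, SE 0.72, unadjusted p = 0.142 by edgeR), and the exact permutation p was 0.229.

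Reg4 was close to undetected in islets. It had 2, 0, 1 and 0 counts in the βIgf1r mice and 22, 4, 6 and 1 counts in the βIgf1rKD mice, 36 counts in all. The 0 counts of M151 and M153 allow up to 3 counts each, which covers counting error only. Reg4 was not tested, and no fold is given.

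**Figure D1:**
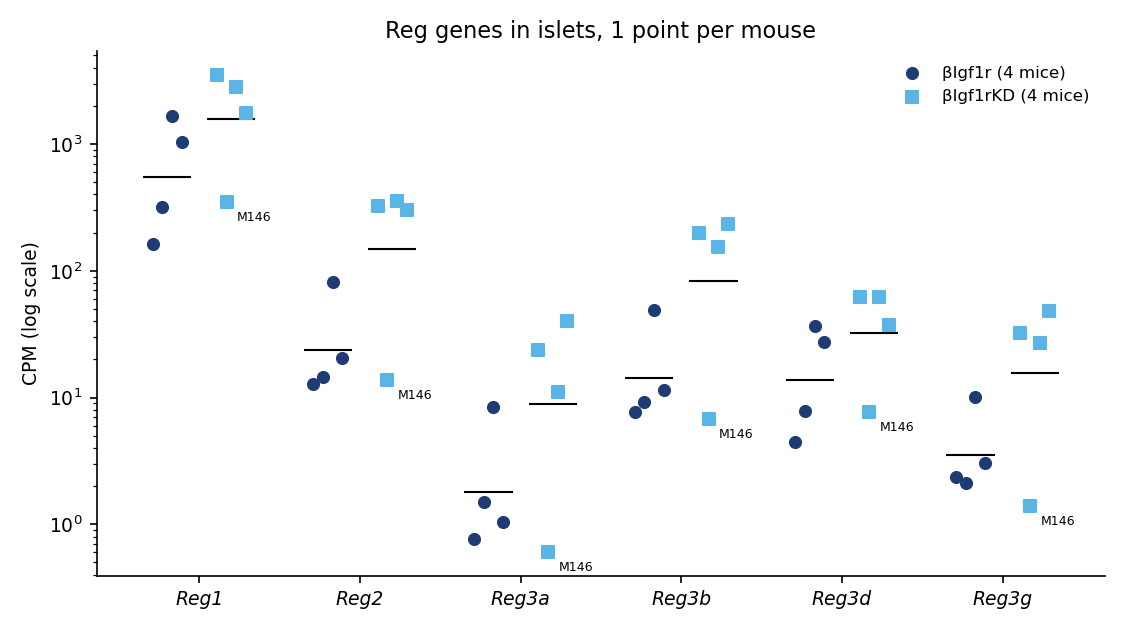
Level of each tested Reg gene in each mouse, in CPM on a log axis, with 4 βIgf1r mice (dark circles) and 4 βIgf1rKD mice (light squares) and the mean of the log values as a bar. For all 6 genes M145, M149 and M150 sit above the βIgf1r mice, and M146, which is labelled, sits low, at 349.1 CPM for Reg1 and 0.607 CPM for Reg3a.

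Of the 6 tested members, 4 (Reg2, Reg3a, Reg3b and Reg3g) had an unadjusted p under 0.05, all higher in βIgf1rKD, against 2.23% of all genes tested that were higher at that p. At a log2 fold change over 2, the same 4 members stood beside 0.414% of all genes (64 of 15474), and at a log2 fold change over 1, 6 of 6 members stood beside 1.98% of all genes. The members were high and low in the same mice, so these calls are not independent. They were also chosen with earlier results of these data known. The median log2 fold change was 2.66 over the 6 members and 0.008 over all genes tested. Ranked from the highest fold change down, Reg2 was at place 15, Reg3b at 16, Reg3a at 23 and Reg3g at 28. None of the 6 had groups that did not overlap, whereas 0.956% of all genes had every βIgf1rKD mouse above every βIgf1r mouse and 1.27% had every βIgf1rKD mouse below.

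The composition of Reg RNA was compared per kilobase of transcript, since the genes differ in length. On this scale the mean levels in βIgf1r islets ran from 1043 CPM per kb for Reg1 through 46.5 for Reg2, 24.8 for Reg3b, 24.3 for Reg3d and 5.71 for Reg3g to 3.56 for Reg3a. In βIgf1rKD islets the order was the same, at 2766, 356.0, 189.9, 54.1, 35.2 and 22.8 CPM per kb. The SD between mice was close to the mean for most genes in βIgf1r (Reg3b 25.5 and Reg3d 19.6 CPM per kb). Within each of the 8 mice, Reg2 was above Reg3b and Reg3g was above Reg3a. Reg3d changed place, above Reg3b in M146 and above both Reg2 and Reg3b in M153. Reg1 took 84.8%, 89.9%, 89.7% and 94.2% of the summed Reg CPM per kb in M148, M151, M152 and M153. Its share was 84.1%, 91.8%, 81.6% and 72.2% in M145, M146, M149 and M150. Reg2 took 2.03% to 7.32% in βIgf1r and 3.94% to 13.6% in βIgf1rKD, and the Reg3 genes together took 3.79% to 7.85% and 4.23% to 14.2%. M150 had the lowest Reg1 share and the highest Reg2 and Reg3 shares of the 8 mice. The ranges of the groups overlapped for each of these shares, which were not tested. All 7 genes together made up 0.0235% to 0.167% of counts in βIgf1r and 0.0446% to 0.334% in βIgf1rKD.

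**Figure D2:**
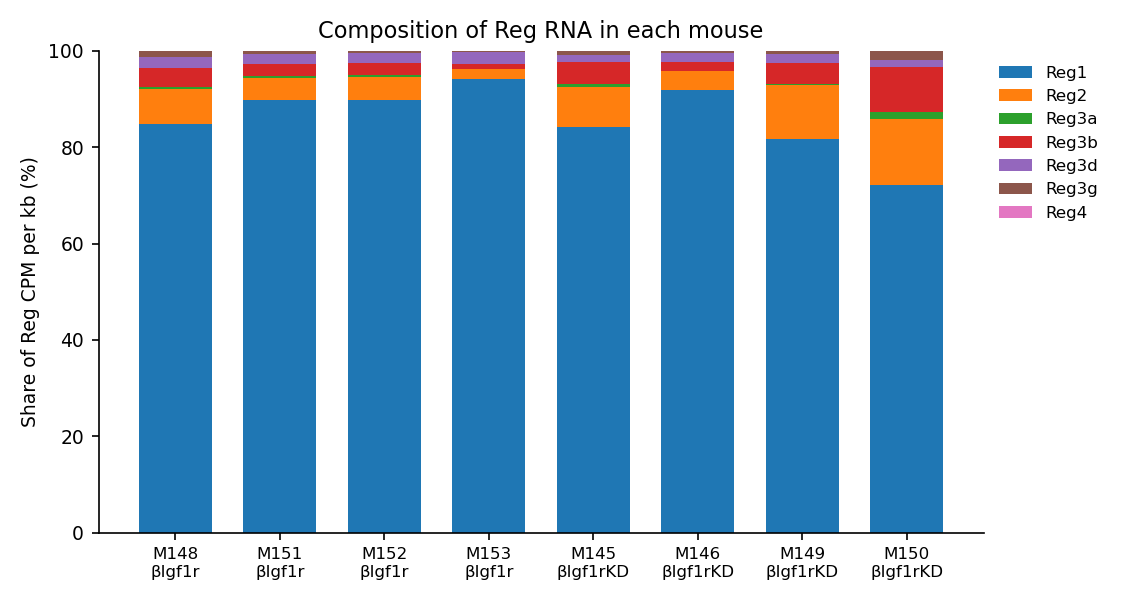
Share of each Reg gene in the summed Reg CPM per kb of each mouse, in percent, with 1 bar per mouse that sums to 100. Reg1 is the main part of every bar, from 94.2% in M153 (βIgf1r) down to 72.2% in M150 (βIgf1rKD), where Reg2 and Reg3b are widest.

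The Reg genes followed acinar RNA from mouse to mouse. An acinar score was formed for each mouse as the mean z-score of log2 CPM over the 23 acinar enzyme genes, each with at least 211 counts in all 8 mice. It was -1.54, -1.03, 0.72 and 0.19 in M148, M151, M152 and M153 and 0.94, -0.81, 1.04 and 0.48 in M145, M146, M149 and M150. The 3 mice with low scores, M146 among them, were also among the 4 lowest mice for each of the 6 Reg genes. Reg3d and Reg1 tracked the score most closely, with Pearson's r of 0.993 (exact permutation p = 0.000198, adjusted over 6 relations p = 0.000595) and 0.991 (p = 0.000149, adjusted p = 0.000595) over 8 mice. Spearman's rho was 0.929 (exact permutation p = 0.00223, adjusted p = 0.00446) for Reg3d and 0.952 (p = 0.00114, adjusted p = 0.00342) for Reg1. Without M148 and M151, the mice farthest from the median score, r was 0.988 for Reg3d and 0.979 for Reg1. M146 was then the only mouse with a low score (-0.81, against 0.19 to 1.04 for the rest), so this r depends on a single low mouse.

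For the other members the relation was looser. Reg2 had r = 0.874 (exact permutation p = 0.0092, adjusted p = 0.0184) and rho = 0.952 (p = 0.00114, adjusted p = 0.00342). Reg3b had r = 0.850 (exact permutation p = 0.0136, adjusted p = 0.0205) and rho = 0.762 (p = 0.0368, adjusted p = 0.055). Reg3g had r = 0.83 (exact permutation p = 0.0198, adjusted p = 0.0238) and rho = 0.738 (p = 0.0458, adjusted p = 0.055), and Reg3a had r = 0.803 (p = 0.0272, adjusted p = 0.0272) and rho = 0.714 (p = 0.0576, adjusted p = 0.0576). The rank relation thus missed an adjusted p of 0.05 for Reg3a, Reg3b and Reg3g. Without M148 and M151, r was 0.847 for Reg2, 0.828 for Reg3b, 0.830 for Reg3g and 0.784 for Reg3a, again with M146 as the only low mouse. With 4 mice a group, r was not computed within groups. As a description, r of the deviations from the group means was 0.990 for Reg1, 0.854 for Reg2, 0.747 for Reg3a, 0.815 for Reg3b, 0.992 for Reg3d and 0.781 for Reg3g. No mouse had a score between -0.81 and 0.19.

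**Figure D3:**
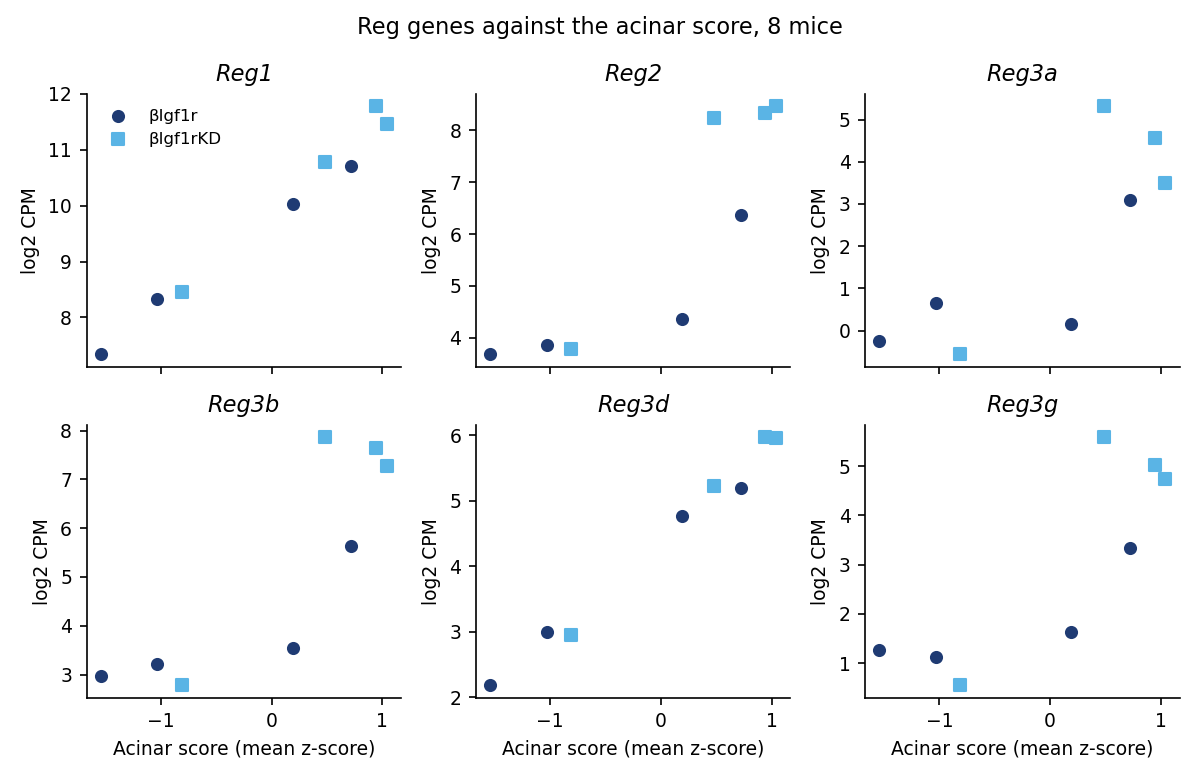
Log2 CPM of each tested Reg gene against the acinar score (mean z-score of 23 acinar enzyme genes), 1 point per mouse, with βIgf1r as dark circles and βIgf1rKD as light squares. Reg1 and Reg3d lie near a line (r of 0.991 and 0.993), and Reg2, Reg3a, Reg3b and Reg3g lie farther from one. For every gene shown, the 3 βIgf1rKD mice with scores of 0.48 to 1.04 lie above the βIgf1r mice with scores of 0.19 and 0.72. The gap is narrow for Reg3d, with M150 at 5.217 and M152 at 5.188 log2 CPM.

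The acinar enzymes themselves had higher fitted levels in βIgf1rKD, with a log2 fold change above 0 for 23 of 23 genes (52.3% of all genes were above 0), a median of 0.94 and none at an unadjusted p under 0.05. The enzymes were high and low in the same mice, each with r of 0.969 to 0.999 with the acinar score. Their 23 signs are thus not independent. Their summed level was 24630 to 237800 CPM in βIgf1r and 52800 to 302100 CPM in βIgf1rKD, and none of the 23 was at 0 in any mouse. The 7 acinar identity genes, among them the transcription factors Ptf1a and Bhlha15, were also above 0 in 7 of 7, with a median of 0.98. Cckar, Bhlha15 and Xbp1 of this list had r of 0.973, 0.689 and 0.538 with the acinar score, so these signs are not separate from the enzyme result. In bulk islets, fewer cells of a type and less RNA per cell cannot be told apart. Each Reg gene was therefore also expressed per 1000000 acinar enzyme counts of the same library, an acinar ratio that does not depend on library size.

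On the scale of the acinar ratio, the members divided by how much of their spread was left. The SD of log2 values over 8 mice went from 1.48 (log2 CPM) to 0.22 (log2 ratio) for Reg3d and from 1.63 to 0.33 for Reg1. It went from 2.21 to 1.23 for Reg2, from 2.24 to 1.31 for Reg3b, from 2.01 to 1.19 for Reg3g and from 2.33 to 1.52 for Reg3a. For the 23 acinar enzymes taken one at a time, the SD of the log2 ratio lay between 0.065 and 0.429, so by spread Reg1 and Reg3d were inside the range of the enzymes and the other 4 members were outside it. The difference between the groups in the log2 ratio lay between -0.25 and 0.27 for the enzymes, a range that held Reg3d (0.10) but not Reg1 (0.38) or the other 4 members. Each enzyme is itself part of the summed count that it is divided by, whereas no Reg gene is. The enzyme values are therefore tied to that sum. A Reg value outside their range does not by itself set the gene apart from acinar genes.

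Reg3d had acinar ratios of 181.5, 188.8, 153.01 and 198.6 in the βIgf1r mice and 223.9, 145.4, 204.5 and 205.7 in the βIgf1rKD mice. The log2 ratio was higher in βIgf1rKD by 0.10 (1.07-fold, exact permutation p = 0.543). M145, M149 and M150 were each above the highest βIgf1r mouse, narrowly (204.5 or more against 198.6), and M146 was the lowest of all. Reg1 had ratios of 6582, 7667, 7021 and 7604 in the βIgf1r mice and 12631, 6613, 9369 and 9804 in the βIgf1rKD mice, a log2 difference of 0.38 (1.30-fold, exact permutation p = 0.114). For Reg1 the 4 βIgf1r mice were close to each other, with M145, M149 and M150 above them and M146 among them.

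Reg2 had acinar ratios of 517.6, 346.2, 345.0 and 149.2 in the βIgf1r mice and 1152, 258.3, 1176 and 1682 in the βIgf1rKD mice. The log2 difference was 1.499 (2.83-fold, exact permutation p = 0.114), with M145, M149 and M150 each above the highest βIgf1r mouse. Reg3b had ratios of 314.4, 220.9, 207.1 and 83.9 in the βIgf1r mice and 717.5, 128.5, 511.4 and 1292 in the βIgf1rKD mice, a log2 difference of 1.41 (2.67-fold, exact permutation p = 0.143). M148 was the highest βIgf1r mouse for both ratios although it had the lowest acinar share of the 8, and M153 was the lowest.

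Reg3g had acinar ratios of 95.1, 50.5, 42.5 and 22.1 in the βIgf1r mice and 116.2, 26.4, 88.6 and 266.4 in the βIgf1rKD mice, a log2 difference of 1.001 (2.002-fold, exact permutation p = 0.257). Here M145 and M150 but not M149 exceeded the highest βIgf1r mouse. Reg3a had ratios of 31.3, 35.7, 35.5 and 7.60 in the βIgf1r mice and 84.8, 11.5, 36.9 and 221.5 in the βIgf1rKD mice, a log2 difference of 1.18 (2.27-fold, exact permutation p = 0.314). M149 exceeded the βIgf1r mice only narrowly for Reg3a.

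**Figure D4:**
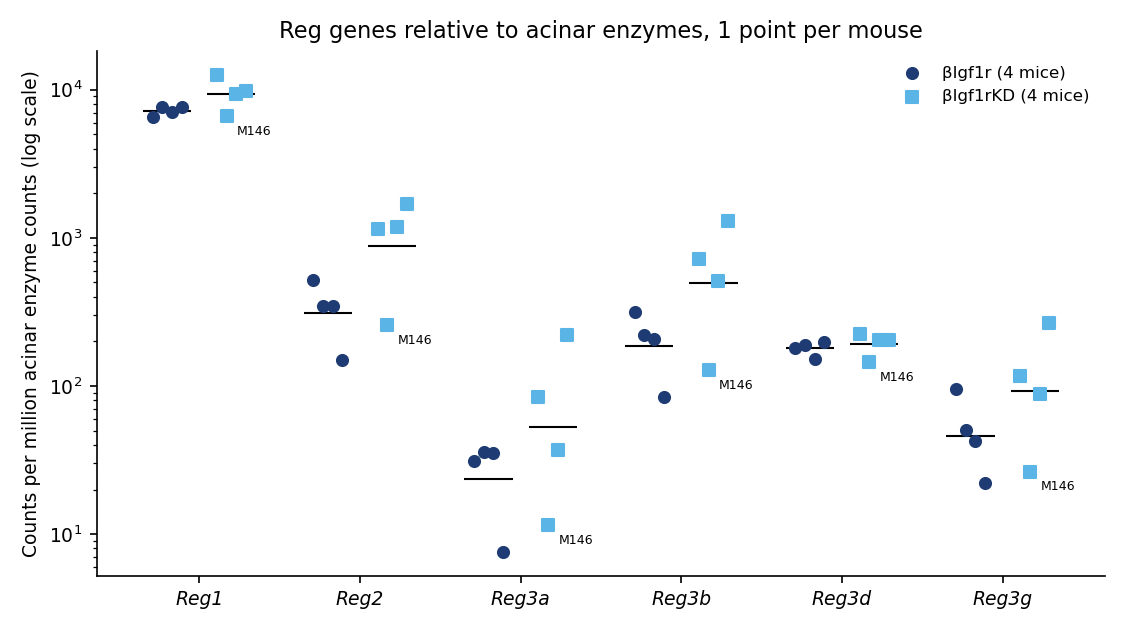
Counts of each tested Reg gene per 1000000 acinar enzyme counts of the same library, on a log axis, with 4 βIgf1r mice (dark circles), 4 βIgf1rKD mice (light squares) and the mean of the log values as a bar. The groups lie close together for Reg3d (145.4 to 223.9 over all mice). M145, M149 and M150 lie above all βIgf1r mice for every gene shown except Reg3g, where M149 does not. M146 is at 258.3 for Reg2 and 128.5 for Reg3b.

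The tests on this scale depended on M146. Without it, each of Reg1 (log2 difference 0.54), Reg2 (2.09), Reg3a (1.92) and Reg3b (2.06) had an exact permutation p of 0.0286, the smallest that 4 against 3 mice give here, whereas Reg3d (0.23) and Reg3g (1.60) did not reach it. For Reg1, Reg2, Reg3a and Reg3b, M146 was the only βIgf1rKD mouse not above every βIgf1r mouse. The p of 0.0286 thus follows from the choice of the mouse left out and adds no evidence of a difference. In edgeR with the acinar score as a covariate, the log2 fold change was 0.22 (SE 0.18, unadjusted p = 0.249) for Reg1 and 0.03 (SE 0.15, unadjusted p = 0.844) for Reg3d. It was 1.54 (SE 0.70, unadjusted p = 0.0567) for Reg2 and 1.65 (SE 0.81, unadjusted p = 0.073) for Reg3b. For Reg3g it was 1.499 (SE 0.79, unadjusted p = 0.0913) and for Reg3a 1.57 (SE 0.96, unadjusted p = 0.136). No member had an unadjusted p under 0.05 in that fit.

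The genes with the most similar pattern were found by Pearson's r of log2 CPM over the 8 mice, which differ in acinar content, and are named as a description. Reg1 was most like Zg16 (r = 0.998), a zymogen granule lectin, Dmbt1 (0.996), a secreted scavenger receptor protein, and Cpb1 (0.996), carboxypeptidase B. Reg3d was most like Rnase1 (0.999), the pancreatic ribonuclease, Dmbt1 (0.999) and 2210010C04Rik (0.999). Zg16, Cpb1 and Rnase1 are among the 23 acinar enzymes. Reg2 was most like Prom2 (0.964), an epithelial membrane protein, Ntn1 (0.962), the guidance cue netrin-1, and Il22ra1 (0.956), a subunit of the interleukin-22 receptor. Reg3b was most like Prom2 (0.947), Galnt6 (0.946), a glycosyltransferase, and Cachd1 (0.944). Reg3a was most like Zadh2 (0.956), Cachd1 (0.928) and Galnt6 (0.926), and Reg3g was most like Plek2 (0.936), Cachd1 (0.935) and Banf2os (0.928), an antisense RNA whose reads cannot be told from those of its partner without strand. None of the 3 nearest genes of Reg2, Reg3a, Reg3b or Reg3g was an acinar enzyme of the list, but they too followed the acinar score. Their r with it was 0.935 for Prom2, 0.926 for Banf2os, 0.914 for Galnt6 and 0.905 for Il22ra1. It was 0.903 for Cachd1, 0.897 for Ntn1, 0.878 for Plek2 and 0.713 for Zadh2.

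The known inducers of Reg genes were scarce in these libraries. Of 10 ligands, only Il1b was tested, with a log2 fold change of -0.24 (SE 0.40). Il6, a main inducer of Reg3b, had 0 to 1 counts in each library, Il22 had 0 to 3 and Ifng had 0 to 2. The transcripts of Il6, Il22 and Ifng were thus near or under the limit that a count of 0 allows. For these, differences between groups were not detectable at this depth. The other untested ligands reached higher counts, with 2 to 22 for Lif, 2 to 18 for Cck and 0 to 9 for Il11. Osm and Tnf had 0 to 8 counts each and Gast had 1 to 6. They were below the filter and were not compared between groups.

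Of 16 receptors and transducers that act on Reg genes or bind Reg proteins, 15 were tested, 10 had a log2 fold change above 0 and the median was 0.12. An unadjusted p under 0.05 was reached by 2 of them, both higher in βIgf1rKD (2.23% of all genes), and no adjusted p passed. Il22ra1 was at 0.426, 0.546, 1.96 and 0.900 CPM in the βIgf1r mice and at 8.14, 0.678, 4.53 and 2.81 CPM in the βIgf1rKD mice (log2 fold change 2.07, SE 0.71, unadjusted p = 0.0157 by edgeR). It thus shared the pattern of Reg2, with M145, M149 and M150 high and M146 low, and its r with the acinar score was 0.905. With the score as a covariate its log2 fold change was 0.93 (SE 0.44, unadjusted p = 0.0606). Ifngr2, a subunit of the interferon-γ receptor, was at 8.30 to 9.43 CPM in βIgf1r and 9.99 to 22.0 CPM in βIgf1rKD, with no overlap (log2 fold change 0.70, SE 0.22, unadjusted p = 0.0108 by edgeR). The most abundant genes of the list showed smaller differences, with log2 fold changes of 0.15 (SE 0.13) for Stat3, -0.01 (SE 0.08) for the kinase Jak1 and -0.15 (SE 0.12) for Il6ra. Extl3, a proposed Reg protein receptor, was at 56.0 ± 17.2 CPM in βIgf1r and 64.7 ± 7.69 CPM in βIgf1rKD (SD, n = 4 each), with a log2 fold change of 0.21 (SE 0.18, unadjusted p = 0.292 by edgeR).

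Among 15 STAT3 targets and acute-phase genes, 10 were tested, 9 had a log2 fold change above 0 and the median was 0.73. An unadjusted p under 0.05 was reached by 2 of them, both higher in βIgf1rKD (2.23% of all genes). These were Socs3, the feedback inhibitor of STAT3 signalling, at 4.73 to 6.29 CPM in βIgf1r and 5.40 to 14.4 CPM in βIgf1rKD (log2 fold change 0.65, SE 0.28, unadjusted p = 0.0466 by edgeR), and the NF-κB cofactor Bcl3 (0.82, SE 0.36, unadjusted p = 0.0482). Both were highest in M145, at 14.4 CPM each, as were Reg1 and Reg3d. Reg2 was highest in M149, and Reg3a, Reg3b and Reg3g were highest in M150. The most abundant of the list were Nupr1, Clu and Junb. Nupr1 and Clu were highest in M149, at 1270 and 1030 CPM, and had log2 fold changes of 1.24 (SE 0.76, unadjusted p = 0.135 by edgeR) and 1.15 (SE 0.57, unadjusted p = 0.0748), whereas Junb had 0.17 (SE 0.25, unadjusted p = 0.514). The single highest mouse thus differed from gene to gene, both in this list and among the 6 tested Reg genes. All 6 Reg genes had M145, M149 and M150 as their 3 highest mice. Among the 3 highest were M146 for Socs3 and Bcl3 and M152 for Nupr1, Clu and Junb. The cause of these patterns was not tested.

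Other cell types were read from their marker lists beside the Reg result. Of the duct markers 11 of 12 were tested, with a median log2 fold change of 0.34, 0 at an unadjusted p under 0.05 and a summed level of 479.3 to 892.5 CPM in βIgf1r and 622.7 to 1208 CPM in βIgf1rKD. That sum is not separate from acinar content. Tff2, at 34.3 to 352 CPM over the mice, had r = 0.994 with the acinar score. The other most abundant duct genes, Krt7 and Krt8, had r of -0.291 and 0.529. Of 10 macrophage and leukocyte markers, 8 were above 0 and 2 were higher at an unadjusted p (C1qb and C1qc; 2.23% of all genes were higher at that p), with sums of 328.4 to 527.0 and 401.3 to 565.1 CPM. All 11 endothelial markers were below 0, 6 of them at an unadjusted p (1.89% of all genes were lower at that p), with sums of 494.5 to 619.6 and 438.9 to 493.5 CPM. Of 10 β-cell genes, 1 was lower at an unadjusted p (Ins1, log2 fold change -0.92), of 8 α-, δ- and PP-cell genes 0 were, and of 9 stellate and fibroblast genes 1 was (Rgs5, -0.31). No marker in these lists was at 3 or fewer counts in every mouse. The part of these cell types in the Reg values was not tested, beyond the acinar ratio and covariate given above.

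**Figure D5:**
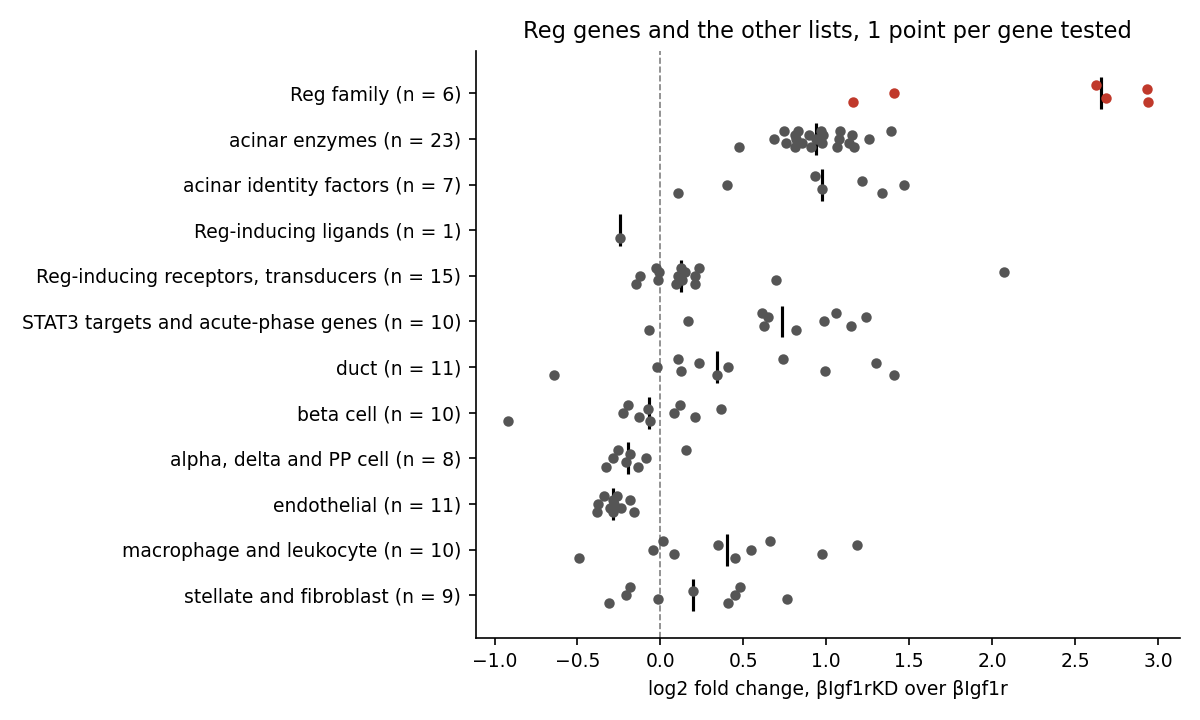
Log2 fold change (βIgf1rKD over βIgf1r, edgeR) of each tested gene in the Reg family and 11 other lists, 1 point per gene, with the list median as a bar and a dashed line at 0. The 6 Reg genes lie between 1.16 and 2.94, the 23 acinar enzymes between 0.47 and 1.39 and the 11 endothelial genes between -0.38 and -0.16.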

How the data were processed

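Islets of 4 βIgf1r and 4 βIgf1rKD mice were profiled by bulk RNA-seq, and columns were matched to mice by the mouse number in the labels. The authors deposited 1 table of estimated counts per gene, not normalized; fastp, kallisto and GRCm38 are named in the submitters' processing notes, and versions and the annotation release are not given in the sources used here. Symbols were taken from an Ensembl ID table, which matched 51906 of 53012 rows.

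Estimated counts were rounded to whole numbers. Library totals were 21634080 to 42391328 counts. Genes were kept by edgeR's filterByExpr (minimum count 10 in 4 mice, minimum total 15), and 15474 of them were tested with glmQLFit and glmQLFTest on TMM-scaled counts, with Benjamini-Hochberg adjustment over all genes tested and no covariate (R 4.3.3, edgeR 4.0.16). Each mouse is a separate animal. Log2 CPM used a prior count of 2. The exact two-sided permutation tests ran over the 70 assignments of mice between groups, over all assignments of the remaining mice where 1 was left out, and over all pairings for correlations (Python 3.11.15, SciPy 1.17.1), and limma 3.58.1 and DESeq2 1.42.0 served as alternatives. The edgeR test was checked on simulated counts, drawn for each gene independently and so without the shared acinar differences of these mice. The exact tests were checked on constructed values with a known p.

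All members were named, with the 3 genes most like each tested member, Igf1r, and from each list the 3 genes of highest CPM and up to 3 with the smallest unadjusted p under 0.05. Of the acinar, islet, duct, endothelial, macrophage and stellate lists only some of these genes are printed, and the lists are given by counts and sums. Extl3, Ptf1a and the untested ligands Il6, Il22, Ifng, Lif, Cck, Il11, Osm, Tnf and Gast were named outside this rule after their values were seen. The members and lists were chosen with earlier results of these data known. Transcripts came from GENCODE M21, promoters from RefSeq (GRCm38.p6), where 7 of 7 members matched. The alternatives were no filter or at least 10 counts in every mouse, RLE size factors, a prior count of 0.5, DESeq2, limma-voom, the acinar score or Xist (as a stand-in for sex) as a covariate, the median ratio to each acinar enzyme, and each mouse left out in turn. Mouse numbers are not shared between groups.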

Additional observations from a re-analysis of the deposited data

Results flagged for a closer look

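In 26 sets of 4 mice (each tested Reg gene as log2 CPM and as the log2 of its ratio to acinar enzymes, and the acinar score, in each group), the gap of the lowest or highest mouse to its neighbour was divided by the whole range and set against Dixon's critical value for 4 values. Chance passes about 1 in 20 sets, or 1.3 of 26, and 4 passed. For log2 CPM in βIgf1rKD, M146 was set apart as the lowest mouse for Reg2 (0.952), Reg3b (0.883) and Reg3g (0.833). These 3 genes were high and low in the same mice, so the 3 values are not independent. For the log2 ratio of Reg3a to acinar enzymes in βIgf1r, M153 was set apart as the lowest mouse (0.916), at 22 counts of Reg3a.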

How the results depend on the processing

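The log2 fold change of all 6 tested Reg genes stayed above 0 under every alternative run, but its size did not hold. With the acinar score as a covariate it went from 1.16 to 0.03 (SE 0.15) for Reg3d and from 1.41 to 0.22 (SE 0.18) for Reg1. In that fit it was 1.54 for Reg2, 1.57 for Reg3a, 1.65 for Reg3b and 1.499 for Reg3g. No alternative brought a member to an adjusted p under 0.05, where adjusted p lay between 0.59 and 1. Reg4 was below the filter and had no fold change. With mice left out in turn, the log2 fold change lay between 1.04 and 2.06 for Reg1, 2.67 and 3.97 for Reg2, 1.997 and 4.114 for Reg3a, 2.63 and 3.98 for Reg3b, 0.82 and 1.70 for Reg3d and 2.19 and 3.46 for Reg3g. The unadjusted p was under 0.05 in 8 of 8 such fits for Reg2, Reg3b and Reg3g, in 3 for Reg3a, 2 for Reg1 and 1 for Reg3d. In limma-voom it was 0.0322 for Reg2, 0.0522 for Reg3b, 0.136 for Reg3g and 0.18 for Reg3a.

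Genes with an adjusted p under 0.05 numbered 0 in edgeR and in all 8 fits with a mouse left out, 8 in DESeq2 and 1 in limma-voom. Genes with an unadjusted p under 0.05 numbered 637, but 1098 with no filter, 396 with the acinar score and 1143 with Xist as a covariate, and 383 (without M148) to 1114 (without M152) with mice left out, among them 402 without M153 and 960 without M146. Relative to acinar enzymes, the log2 difference with mice left out lay between 0.23 and 0.54 for Reg1, 1.15 and 2.09 for Reg2, 0.49 and 1.92 for Reg3a, 0.95 and 2.06 for Reg3b, 0.02 and 0.23 for Reg3d and 0.49 and 1.60 for Reg3g. Without M146, Reg1 (0.544), Reg2 (2.086), Reg3a (1.917) and Reg3b (2.065) had an exact permutation p of 0.0286. For these genes M146 was the only βIgf1rKD mouse not above every βIgf1r mouse, so this p follows from leaving it out. The cause of the low values in M146 was not tested. Depth limits Reg4 and the cytokine ligands.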
